A study of Homo sapiens with 12 samples.

Results

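Transcript levels of 10 genes that regulate entry into the cell cycle were compared in 786-O cells treated with everolimus, SGI-1027 or both drugs. The genes were chosen by symbol as standard regulators of the G1 phase, by a rule that used no measured value, although earlier results of these data were known when the list was drawn up: the D-type cyclins CCND1, CCND2 and CCND3, their kinases CDK4 and CDK6, the E-type cyclins CCNE1 and CCNE2, the CDK inhibitors CDKN1A and CDKN1B, and the transcription factor E2F1. All 10 were among the 17085 genes of the count table, and 9 passed the filter on low counts that left 12841 genes for testing. CCND2 did not pass, with 0 to 7 counts in each library.

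In G1, growth signals raise D-type cyclins, which bind CDK4 or CDK6 and phosphorylate the retinoblastoma protein RB1. RB1 then releases E2F factors, which transcribe CCNE1, CCNE2 and the genes of DNA synthesis, and cyclin E with CDK2 carries the cell into S phase. CDKN1A (p21) and CDKN1B (p27) bind and inhibit the cyclin E and cyclin A complexes of CDK2 and also associate with cyclin D complexes. mTOR signalling promotes translation of D-type cyclins, and CCND1 is a known target of HIF-2 in renal carcinoma cells that lack VHL, as 786-O cells do. Much of this control acts on protein stability, translation and phosphorylation, which RNA levels do not show.

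786-O is an established human renal carcinoma line that carries no functional VHL. The study asked how everolimus, an inhibitor of mTOR complex 1, and SGI-1027, an inhibitor of DNA methyltransferases, act alone and together. Cells received the vehicle DMSO, everolimus at 5 µM, SGI-1027 at 1.5 µM, or the combination at these doses for 24 h, with 3 libraries per group. One label gave 10 µM for everolimus alone, so that a dose difference between this group and the combination cannot be told apart from the added drug. One cell line was used, and no label named separate cultures behind the 3 libraries of each treatment. The p-values thus measure the spread between libraries, which may be technical. At these doses, the study reported that the combination, unlike either drug alone, raised release of lactate dehydrogenase before the time of RNA extraction. It proposed that membranes were damaged early as cells died. The part of cell death in the RNA values of the combination, and so in its comparisons and the interaction, was not tested.

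The libraries held 37046231 to 41516976 counts. All 8 renal carcinoma markers were detected, with PAX8 at 80.1 to 102 FPKM and VIM at 2749 to 3413 FPKM as group means, whereas 7 of 10 markers of leukocytes, endothelium, hepatocytes, fibroblasts and muscle were too low to test. COL1A1 was the highest of those 10, at 0.718 to 1.17 FPKM. The first DMSO library and the third SGI-1027 library stood apart from the other libraries of their groups, with chi-square values per gene of 10.07 to 12.83 and of 15.71 to 15.97, against at most 5.41 for the remaining pairs. Results that turned on these libraries are given with and without them.

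Promoter sequence of GRCh38.p14, from RefSeq, covered 7 of the 10 genes in 10 windows that ran from 250 bases before to 50 bases after a start site. The windows were searched on both strands for TTTCCCGC and TTTGGCGC (E2F), CACGTG (the E-box of MYC), GTAAACA (FOXO), and TGACGTCA and TAACGTCA (both CRE-like). Matches were found in 4 of the 10 windows, and the windows of E2F1, CDK4 and the upstream start of CCND3 are shown because each holds a different motif. Capitals mark the matches, and each window is read 5′ to 3′ on the strand of its gene.
E2F1 (chr20:33686336-33686635, minus strand): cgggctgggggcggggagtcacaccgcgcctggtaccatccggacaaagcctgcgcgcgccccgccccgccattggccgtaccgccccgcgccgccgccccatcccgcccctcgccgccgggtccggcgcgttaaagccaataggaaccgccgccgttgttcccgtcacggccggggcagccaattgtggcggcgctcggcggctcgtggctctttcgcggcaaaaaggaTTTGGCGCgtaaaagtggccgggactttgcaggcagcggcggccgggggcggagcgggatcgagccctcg
CDK4 (chr12:57752261-57752560, minus strand): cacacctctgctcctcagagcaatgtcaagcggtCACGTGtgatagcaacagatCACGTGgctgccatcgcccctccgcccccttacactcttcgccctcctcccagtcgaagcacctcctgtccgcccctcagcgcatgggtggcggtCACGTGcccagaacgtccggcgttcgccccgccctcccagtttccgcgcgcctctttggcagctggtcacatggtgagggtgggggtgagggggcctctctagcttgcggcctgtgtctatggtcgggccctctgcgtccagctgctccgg
CCND3 (chr6:42048639-42048938, minus strand): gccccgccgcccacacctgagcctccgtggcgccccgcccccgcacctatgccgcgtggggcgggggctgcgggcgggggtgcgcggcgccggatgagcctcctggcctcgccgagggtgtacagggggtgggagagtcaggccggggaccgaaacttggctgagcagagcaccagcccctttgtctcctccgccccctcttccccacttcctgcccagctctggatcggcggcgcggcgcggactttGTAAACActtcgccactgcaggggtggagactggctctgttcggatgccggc
The E2F match lay at bases -20 to -13 from the E2F1 start, and TTTGGCGC occurred in 0.652% of all 35116 windows. CDK4 held 3 E-boxes, starting at bases -216, -196 and -101, and CDK6 held 1 at bases 31 to 36, against 7.26% of all windows with at least 1 E-box. The FOXO match in CCND3 spanned its start site, and 3.42% of windows held it. TTTCCCGC (1.63% of windows), TGACGTCA (1.85%) and TAACGTCA (0.347%) had no match in the windows of the 7 genes. No matches overlapped each other, and the letters alone do not show that a factor binds.

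Among the D-type cyclins, CCND1 and CCND3 moved in different directions with SGI-1027 and the combination. CCND1, the D-type cyclin with the highest level in these cells, fell under everolimus, rose under SGI-1027 and rose further under the combination. CCND1 measured 76.2, 77.7 and 78.1 FPKM in the DMSO libraries and 58.3, 57.2 and 59.7 FPKM with everolimus. It measured 108.8, 108.3 and 110.8 FPKM with SGI-1027 and 152.7, 160.7 and 158.9 FPKM with the combination. No library of one group reached the range of another, and the groups stood in the order everolimus, DMSO, SGI-1027, combination. Against DMSO, the log2 fold change was -0.41 ± 0.04 (SE) with everolimus (edgeR quasi-likelihood test, Benjamini-Hochberg adjusted p = 2.45e-08), 0.50 ± 0.04 with SGI-1027 (adjusted p = 1.04e-09) and 1.01 ± 0.04 with the combination (adjusted p = 5.43e-14). The combination value corresponded to a 2.01-fold level, with a 95% interval of 1.91 to 2.11. Bulk RNA cannot tell a change of transcript per cell from a change in the share of cells in a phase of the cycle. By flow cytometry at the same doses and time, the study reported G0/G1 arrest with everolimus and more of it with the combination. It reported no significant effect of SGI-1027 alone on the cycle. The part of these phase shares in the RNA values was not tested.

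CCND1 also rose in each comparison between treated groups. It was 2.67-fold higher with the combination than with everolimus (95% interval 2.53 to 2.81, adjusted p = 4.43e-15) and 1.42-fold higher than with SGI-1027 (1.35 to 1.49, adjusted p = 1.31e-08). SGI-1027 stood 1.88-fold above everolimus (adjusted p = 2.56e-12). Everolimus thus went with opposite signs without and with SGI-1027, since CCND1 was lower with everolimus than with DMSO and higher with the combination than with SGI-1027 alone. LTO1, which overlaps CCND1 in the annotation, moved from 5.15 FPKM in DMSO to 4.24, 4.99 and 5.98 FPKM with everolimus, SGI-1027 and the combination. VEGFA and EPAS1 (HIF-2α), a HIF-2 target and HIF-2 itself, stood in the same order of groups as CCND1. EPAS1 averaged 27.8, 30.9, 46.5 and 53.3 FPKM and VEGFA 83.9, 104, 142 and 153 FPKM in everolimus, DMSO, SGI-1027 and combination cells, and their part in the CCND1 result was not tested. The order was not particular to them, since E2F7, an E2F family gene, averaged 7.93, 9.53, 10.0 and 17.1 FPKM in the same groups. How many genes share this order was not counted.

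CCND3, a D-type cyclin that can stand in for CCND1 in many cell types, fell in all 3 treatments. Its levels were 23.6, 20.6 and 19.4 FPKM in DMSO and 11.8, 11.8 and 11.3 FPKM with everolimus. With SGI-1027 they were 13.6, 14.0 and 15.7 FPKM, and with the combination 13.6, 14.5 and 15.4 FPKM. The lowest DMSO library lay above every treated library, everolimus libraries were the lowest, and the SGI-1027 and combination libraries overlapped. The log2 fold change against DMSO was -0.87 ± 0.07 with everolimus (adjusted p = 8.69e-09), -0.55 ± 0.07 with SGI-1027 (adjusted p = 1.45e-06) and -0.57 ± 0.07 with the combination (adjusted p = 8.97e-07). The combination was higher than everolimus by 0.30 ± 0.07 (adjusted p = 0.00207), whereas against SGI-1027 the difference of -0.01 had a 95% interval of -0.16 to 0.14.

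CCND2 stayed near the detection limit, with 1, 3 and 5 counts in DMSO, 2, 7 and 7 in everolimus cells, 1, 1 and 0 in SGI-1027 cells and 6, 2 and 4 in combination cells. At so few counts it did not pass the filter, and no difference was tested in the main fit. CCND1 made up most of the summed D-type cyclin FPKM, and its share was higher in the treated groups. The share was 78.5% ± 1.90 (SD, n = 3) in DMSO, 83.4% ± 0.647 in everolimus cells, 88.4% ± 0.657 in SGI-1027 cells and 91.6% ± 0.346 in combination cells. The sum itself went from 98.5 ± 1.14 FPKM in DMSO to 70.1 ± 0.948 in everolimus cells, 124 ± 2.41 in SGI-1027 cells and 172 ± 4.91 in combination cells.

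**Figure D1:**
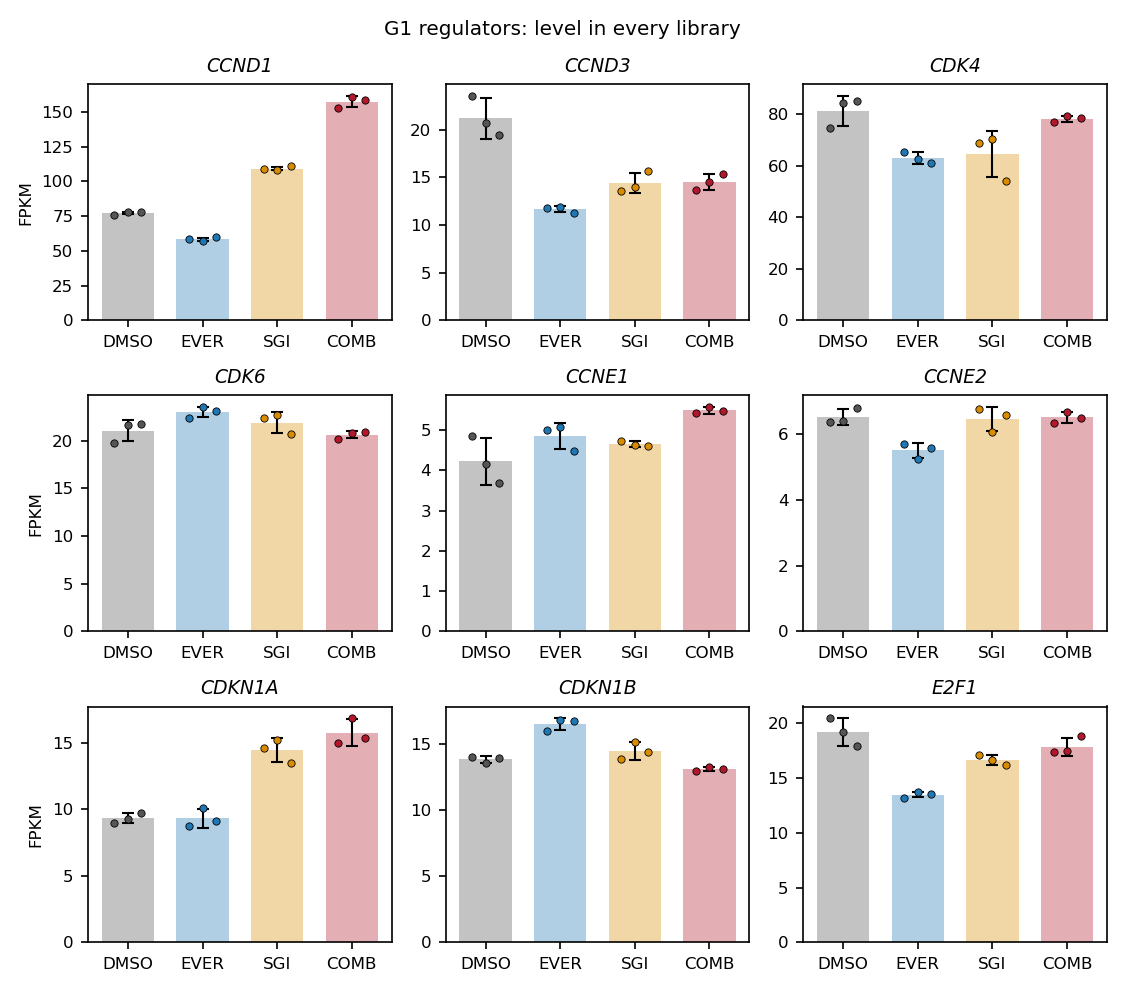
FPKM (y axis, from 0) of the 9 tested G1 regulators in each of 12 libraries, for cells given DMSO, EVER (everolimus), SGI (SGI-1027) or COMB (the combination), where points are libraries, bars are means and whiskers are SD (n = 3). CCND1 stood at 153 to 161 FPKM in combination libraries against 76.2 to 78.1 FPKM in DMSO, whereas CDK6 stayed within 19.8 to 23.5 FPKM throughout.

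Of the kinase partners of the D-type cyclins, CDK4 fell with either drug alone and lay close to its DMSO level with the combination. Its levels were 74.7, 84.2 and 85.2 FPKM in DMSO, 65.4, 62.8 and 60.9 in everolimus cells, 68.8, 70.5 and 54.1 in SGI-1027 cells and 76.8, 79.4 and 78.4 in combination cells. All everolimus and SGI-1027 libraries were below all DMSO and combination libraries, and the latter groups overlapped. The lowest CDK4 value within DMSO and within SGI-1027 came from the library of that group that stood apart.

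The log2 fold change of CDK4 against DMSO was -0.37 ± 0.07 with everolimus (adjusted p = 0.000298) and -0.34 ± 0.07 with SGI-1027 (adjusted p = 0.000667). With the combination it was -0.08 ± 0.07 (95% interval -0.23 to 0.08, adjusted p = 0.361). When both libraries that stood apart were left out, the combination value became -0.14 and passed the test (adjusted p = 0.000633), and SGI-1027 gave -0.29 (adjusted p = 5.6e-08). CDK4 was higher with the combination than with everolimus by 0.30 ± 0.07 (adjusted p = 0.0036) and than with SGI-1027 by 0.26 ± 0.07 (adjusted p = 0.0183). The latter fell to 0.15 without the third SGI-1027 library (adjusted p = 0.0442), and it missed the threshold without the second (0.25, adjusted p = 0.0639) or the third (0.26, adjusted p = 0.0563) combination library. SGI-1027 and everolimus differed by 0.04 (95% interval -0.12 to 0.19), and by 0.15 (adjusted p = 0.00248) without both libraries that stood apart.

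TSPAN31, a tetraspanin gene on the opposite strand that overlaps CDK4, moved the other way. It rose from 5.16 FPKM in DMSO to 10.7 in everolimus cells, 9.80 in SGI-1027 cells and 8.22 in combination cells, with log2 fold changes of 1.04, 0.92 and 0.65. MARCHF9, another neighbour, rose from 3.90 to 4.98, 5.08 and 6.05 FPKM. How the counting treated strand is not given in the sources used here, so reads in the overlap cannot be assigned with certainty, and the part of TSPAN31 in the CDK4 values was not tested.

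CDK6 stayed within a narrow range in all 4 groups. It measured 19.8, 21.7 and 21.7 FPKM in DMSO, 22.4, 23.5 and 23.2 in everolimus cells, 22.4, 22.7 and 20.7 in SGI-1027 cells and 20.2, 20.8 and 20.9 in combination cells. The everolimus libraries were the highest on average and did not overlap DMSO. The log2 fold change was 0.12 ± 0.04 with everolimus (adjusted p = 0.0266), 0.06 ± 0.04 with SGI-1027 (adjusted p = 0.282) and -0.05 ± 0.04 with the combination (adjusted p = 0.326). Without the first DMSO library the everolimus value dropped to 0.07 (adjusted p = 0.161) and the combination value of -0.10 passed the test (adjusted p = 0.0416). The everolimus call was also lost without the second (0.11, adjusted p = 0.0849) or the third everolimus library (0.12, adjusted p = 0.0738). CDK6 was lower with the combination than with everolimus by -0.17 ± 0.04 on the log2 scale (adjusted p = 0.00474). Its difference of -0.11 between the combination and SGI-1027 (adjusted p = 0.104) became -0.14 without the third SGI-1027 library (adjusted p = 0.0218) and passed at -0.10 without the first DMSO library (adjusted p = 0.0465).

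In FPKM, CDK4 was the more abundant kinase transcript in every group. It accounted for 79.4% ± 0.305 of the CDK4 and CDK6 sum in DMSO, 73.2% ± 1.08 in everolimus cells, 74.5% ± 1.87 in SGI-1027 cells and 79.1% ± 0.150 in combination cells (SD, n = 3).

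**Figure D2:**
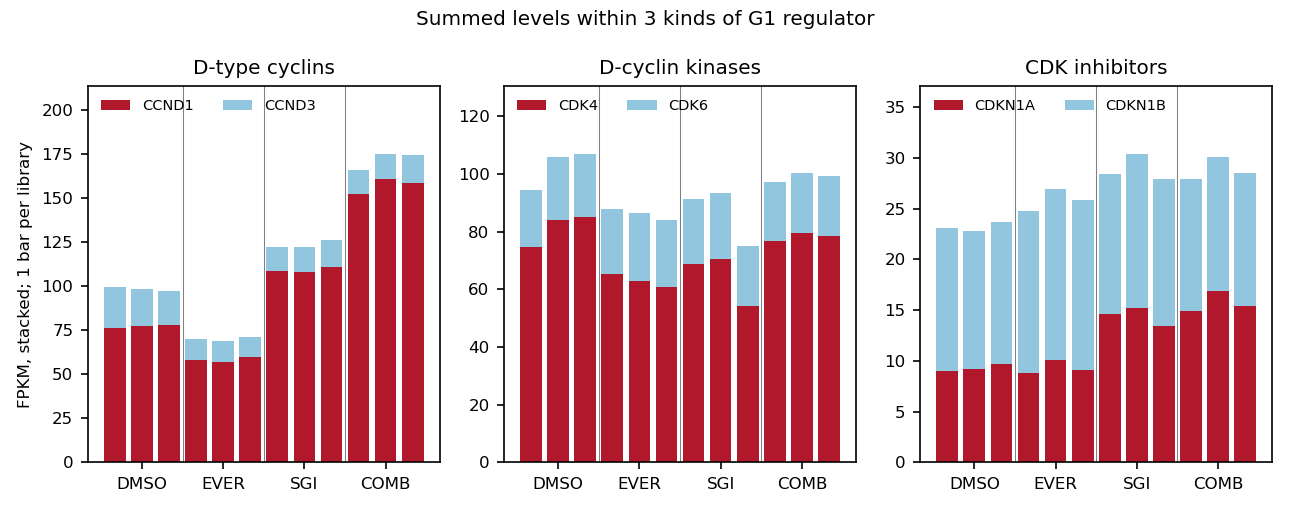
Stacked FPKM (y axis, from 0) of CCND1 and CCND3, CDK4 and CDK6, and CDKN1A and CDKN1B, with 1 bar for each library of cells given DMSO, EVER (everolimus), SGI (SGI-1027) or COMB (the combination). Summed D-type cyclin transcript ran from 69.1 FPKM in an everolimus library to 175 FPKM in a combination library, most of it CCND1, and the third SGI-1027 library had the lowest CDK4.

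The E-type cyclins, which activate CDK2 at the G1/S boundary, were present at much lower levels, and the 2 genes did not move alike. CCNE1 measured 4.85, 4.15 and 3.69 FPKM in DMSO, 5.02, 5.08 and 4.49 in everolimus cells, 4.73, 4.64 and 4.60 in SGI-1027 cells and 5.42, 5.58 and 5.48 in combination cells. All 3 combination libraries stood above every DMSO library, whereas the everolimus and SGI-1027 libraries overlapped DMSO. CCNE1 rose with the combination by 0.36 ± 0.09 on the log2 scale (adjusted p = 0.00223). The value was 0.20 ± 0.09 with everolimus (adjusted p = 0.0772) and 0.14 ± 0.09 with SGI-1027 (adjusted p = 0.2). The highest DMSO value came from the library that stood apart. Without it everolimus gave 0.30 (adjusted p = 0.0128) and SGI-1027 gave 0.24 (adjusted p = 0.0348), and everolimus also passed when the third of its own libraries was left out (0.25, adjusted p = 0.0491) and under upper-quartile scaling (0.27, adjusted p = 0.0192). Without both libraries that stood apart, everolimus gave 0.30 (adjusted p = 0.0106) and SGI-1027 gave 0.24 and missed the threshold (adjusted p = 0.0529).

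CCNE2 measured 6.36, 6.38 and 6.80 FPKM in DMSO and 5.70, 5.25 and 5.56 with everolimus, without overlap. It measured 6.76, 6.05 and 6.56 FPKM with SGI-1027 and 6.33, 6.68 and 6.49 with the combination, within or near the DMSO range. CCNE2 fell with everolimus by 0.25 on the log2 scale (SE 0.06, adjusted p = 0.00245). With SGI-1027 the difference was -0.01 (95% interval -0.14 to 0.12) and with the combination -0.02 (-0.15 to 0.11). The combination was higher than everolimus by 0.23 ± 0.06 (adjusted p = 0.00765), and SGI-1027 was higher than everolimus by 0.24 ± 0.06 (adjusted p = 0.0103), a call lost without the second everolimus library (0.20, adjusted p = 0.0608). INTS8 and NDUFAF6, which overlap CCNE2, were lower in all 3 treatments, with INTS8 at 8.37 FPKM in DMSO and 6.63, 5.89 and 5.67 FPKM in everolimus, SGI-1027 and combination cells.

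The CDK inhibitors responded to different drugs. CDKN1A (p21), a direct target of p53 and of other stress pathways, rose with SGI-1027 and with the combination, and did not differ detectably from DMSO with everolimus. CDKN1A measured 8.98, 9.24 and 9.72 FPKM in DMSO, 8.76, 10.1 and 9.11 in everolimus cells, 14.6, 15.2 and 13.5 in SGI-1027 cells and 15.0, 16.9 and 15.4 in combination cells. The 6 libraries that received SGI-1027 all lay above the 6 that did not. The log2 fold change was 0.63 ± 0.07 with SGI-1027 (adjusted p = 1.79e-07) and 0.74 ± 0.07 with the combination (adjusted p = 1.75e-08). With everolimus it was -0.003 (95% interval -0.14 to 0.14, adjusted p = 0.975). The combination exceeded SGI-1027 by 0.10 ± 0.06, with a 95% interval of -0.03 to 0.24 (adjusted p = 0.287).

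CDKN1B (p27), which FOXO factors transcribe and which is otherwise set mainly by protein degradation, rose with everolimus. It measured 14.1, 13.6 and 14.0 FPKM in DMSO and 16.0, 16.9 and 16.8 with everolimus. It measured 13.9, 15.2 and 14.4 FPKM with SGI-1027 and 13.0, 13.3 and 13.1 with the combination. Every everolimus library exceeded every other library, and the combination libraries were the lowest. The log2 fold change was 0.25 ± 0.05 with everolimus (adjusted p = 0.000363), 0.06 ± 0.05 with SGI-1027 (adjusted p = 0.281, but 0.12 with an adjusted p of 0.048 under upper-quartile scaling) and -0.10 ± 0.05 with the combination (adjusted p = 0.0942). CDKN1B was lower with the combination than with everolimus, at -0.35 ± 0.05 (adjusted p = 2.1e-05). It was also lower with SGI-1027 than with everolimus, at -0.19 ± 0.05 (adjusted p = 0.012), a call lost without the first SGI-1027 library (-0.15, adjusted p = 0.0655). The difference of -0.16 ± 0.05 between the combination and SGI-1027 had an adjusted p of 0.0297 that was lost in 8 of 22 alternative analyses, with a highest value of 0.138 without the second SGI-1027 library.

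CDKN1A and CDKN1B, without other CDK inhibitors, summed to 23.2 ± 0.473 FPKM in DMSO and 25.9 ± 1.11 in everolimus cells. The sum was 28.9 ± 1.31 in SGI-1027 cells and 28.9 ± 1.14 in combination cells (SD, n = 3). CDKN1A made up 40.2% ± 1.05 of the sum in DMSO, 36.04% ± 1.28 in everolimus cells, 49.9% ± 1.50 in SGI-1027 cells and 54.5% ± 1.31 in combination cells.

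E2F1, the activating E2F factor that RB1 restrains and that also drives its own transcription, fell most with everolimus. It measured 20.5, 19.2 and 17.9 FPKM in DMSO, 13.2, 13.7 and 13.5 in everolimus cells, 17.1, 16.6 and 16.1 in SGI-1027 cells and 17.3, 17.4 and 18.8 in combination cells. The everolimus libraries were lower than all others, and combination libraries overlapped DMSO. The log2 fold change was -0.51 ± 0.05 with everolimus (adjusted p = 1.81e-07) and -0.21 ± 0.05 with SGI-1027 (adjusted p = 0.00211). With the combination it was -0.12 ± 0.05 (adjusted p = 0.0416), a call lost in 14 of 22 alternative analyses, including those without the first (-0.08, adjusted p = 0.192) or second DMSO library (-0.12, adjusted p = 0.104), without the first or second combination library (-0.10 in each, adjusted p = 0.156 and 0.152) and without the second or the third everolimus library (-0.13 in each, adjusted p = 0.0501 and 0.0513). E2F1 was higher with the combination than with everolimus by 0.39 ± 0.05 (adjusted p = 1.02e-05), and its difference from SGI-1027 was 0.08 ± 0.05 (95% interval -0.03 to 0.19).

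**Figure D3:**
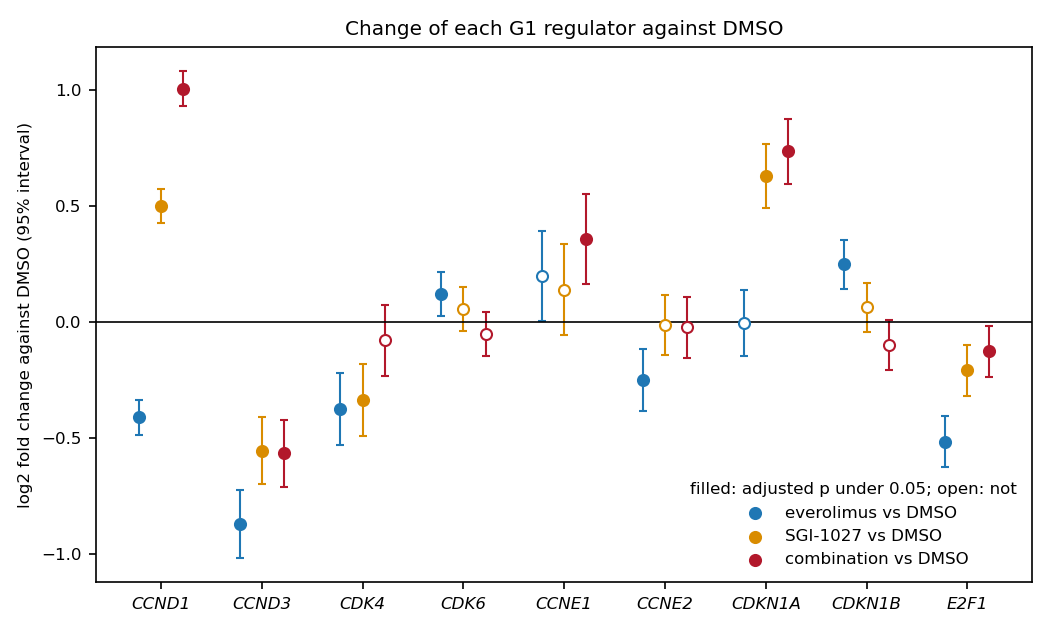
Log2 fold change against DMSO (y axis) of the 9 tested G1 regulators with everolimus, SGI-1027 and the combination, with 95% intervals, where filled points passed an adjusted p of 0.05 and open points did not. CCND1 ran from -0.41 to 1.01, CCND3 was below 0 in all 3 treatments, and CDKN1A was near 0 with everolimus only.

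Counted over the 9 tested genes, everolimus raised 2 (CDK6 and CDKN1B) and lowered 5 (CCND1, CCND3, CDK4, CCNE2 and E2F1), while 27.2% of all tested genes were higher and 29.2% lower. SGI-1027 raised CCND1 and CDKN1A and lowered CCND3, CDK4 and E2F1, against 32% higher and 30.6% lower overall. The combination raised CCND1, CCNE1 and CDKN1A and lowered CCND3 and E2F1, against 32.8% and 33.4%. The median size of the log2 change among the 9 genes was 0.25, 0.21 and 0.12 in these 3 comparisons, beside 0.25, 0.29 and 0.32 over all tested genes. The sizes over the 9 genes were thus no larger than over all genes in these comparisons. CCND1 with the combination was the only one to reach a log2 change of 1, which 4.79%, 7.33% and 9.96% of all genes reached with an unadjusted p under 0.05 with everolimus, SGI-1027 and the combination. Upper-quartile scaling moved the share of higher genes among all those called with everolimus from 48.2% to 60.7%.

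Between the treated groups, the combination was higher than everolimus for 6 of the 9 genes (CCND1, CCND3, CDK4, CCNE2, CDKN1A and E2F1) and lower for 2 (CDK6 and CDKN1B), against 20.1% and 19.2% of all tested genes. The median size of these differences was 0.30, beside 0.16 over all genes. The combination was higher than SGI-1027 for CCND1 and CDK4 and lower for CDKN1B, against 9.4% and 10.2%. SGI-1027 was higher than everolimus for CCND1, CCND3, CCNE2, CDKN1A and E2F1 and lower for CDKN1B, against 13% and 9.51%.

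Whether the combination differed from the sum of the single drugs was tested as an interaction, the log2 change with the combination minus the log2 changes with each drug alone. It was above 0 for 5 of 9 genes and below 0 for 2, while 23.6% of all tested genes lay significantly above and 22.1% below. Upper-quartile scaling moved the share above 0 among all genes called from 51.7% to 39.5%. CCND1 had the largest interaction among the 9, at 0.92 ± 0.05 (adjusted p = 2.72e-10), followed by CCND3 at 0.86 ± 0.10 (adjusted p = 1.59e-06), CDK4 at 0.63 ± 0.10 (adjusted p = 8.25e-05) and E2F1 at 0.60 ± 0.07 (adjusted p = 4.1e-06). For CCND3, CDK4 and E2F1 both drugs alone lowered the gene, and the combination value lay nearer to 0 than the sum, whereas for CCND1 the single drugs pulled in opposite directions.

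CDKN1B (-0.41 ± 0.07, adjusted p = 0.000133) and CDK6 (-0.23 ± 0.06, adjusted p = 0.00634) had interactions below 0. The CCNE2 interaction of 0.24 ± 0.09 (adjusted p = 0.035) was lost in 7 of 21 alternative analyses, 6 of which left out 1 library (the third DMSO, second SGI-1027, the second or the third combination, or the second or the third everolimus library; values of 0.19 to 0.25, adjusted p of 0.0512 to 0.0939). CDKN1A at 0.11 (95% interval -0.09 to 0.30) and CCNE1 at 0.02 (-0.25 to 0.29) did not differ detectably from the sum. Should the everolimus group have received 10 µM, its dose would not match that in the combination, and these values would then not be a test of additivity.

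**Figure D4:**
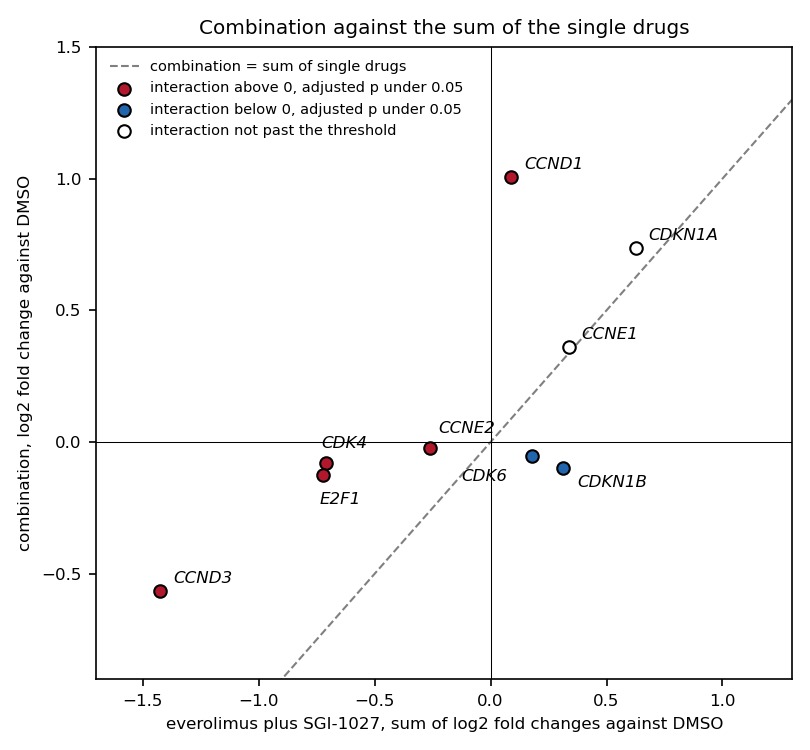
Log2 fold change against DMSO with the combination (y axis) against the sum of the log2 fold changes with everolimus and SGI-1027 alone (x axis) for the 9 tested genes, where the dashed line marks equality. Red genes had an interaction above 0, blue genes below 0 and white genes missed an adjusted p of 0.05. CCND1 lay farthest above the line (interaction 0.92).

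Genes around the 9 regulators gave the wider picture of the pathway. The E2F family and pocket proteins, which form the switch below cyclin D, gave 8 lower and 2 higher of 12 tested with everolimus. They gave 5 and 2 with SGI-1027, and 7 and 3 with the combination. Of all tested genes, 29.2%, 30.6% and 33.4% were lower and 27.2%, 32% and 32.8% higher in these comparisons. E2F8, an atypical repressor E2F, fell from 5.61 FPKM in DMSO to 2.56 with the combination (log2 -1.15 ± 0.08, adjusted p = 4.35e-10). E2F7, its close relative, instead rose from 9.53 to 17.1 FPKM with the combination (0.83 ± 0.06, adjusted p = 5.57e-10), while everolimus lowered it to 7.93 FPKM. RBL2 (p130), the pocket protein of resting cells, rose by 0.56 to 0.60 in all 3 treatments, and the E2F partner TFDP1 fell by 0.38 to 0.48. RB1 itself, singled out after its values were seen, stayed at 9.67 to 10.0 FPKM as group means.

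E2F target genes that serve DNA replication and nucleotide supply were mostly lower in all 3 treatments. Of 40 tested, 38 were lower in everolimus cells, 37 in SGI-1027 cells and 33 in combination cells, and 0, 0 and 1 were higher. Of all tested genes, 29.2%, 30.6% and 33.4% were lower and 27.2%, 32% and 32.8% higher. Median log2 changes were -0.48, -0.45 and -0.37 beside 0.001, 0.02 and 0.007 over all genes. TYMS, which makes thymidylate, went from 199 FPKM in DMSO to 137 in everolimus cells, 108 in SGI-1027 cells and 100 in combination cells. RRM2, the regulated subunit of ribonucleotide reductase, went from 78.3 to 52.5, 44.4 and 45.7 FPKM. UHRF1, which guides DNA methylation at replication forks, fell by 0.62 to 0.65 in all 3 treatments, and TK1 by 0.19, 0.39 and 0.53. Against everolimus, 21 of the 40 genes were higher with the combination and 4 lower, beside 20.1% and 19.2% of all tested genes. TYMS, RRM2 and TK1, named above for their small p, were among the 4 lower genes and so differ from most of the list. An interaction above 0 was called for 37 of 40, beside 23.6% of all tested genes.

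Genes of the later G2 and M phases were lower as well. All 32 were lower with the combination, 31 with SGI-1027 and 27 with everolimus, where 1 was higher. In the same order, 33.4%, 30.6% and 29.2% of all tested genes were lower, and 27.2% were higher with everolimus. The median log2 change was -0.44, -0.84 and -0.97 with everolimus, SGI-1027 and the combination, beside 0.001, 0.02 and 0.007 over all genes. Unlike the E2F targets, all 32 were also lower with the combination than with everolimus (median -0.55), beside 19.2% of all tested genes. The mitotic kinesin KIF20A went from 89.5 FPKM in DMSO to 67.6, 38.5 and 28.3, and CDC20, an activator of the anaphase-promoting complex, from 298 to 177, 128 and 118 FPKM. The mitotic kinase AURKA was lower by 1.42 on the log2 scale with the combination and BIRC5 (survivin) by 1.21. Leaving out both libraries that stood apart gave 39, 37 and 33 lower E2F targets and 29, 32 and 32 lower G2/M genes.

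**Figure D5:**
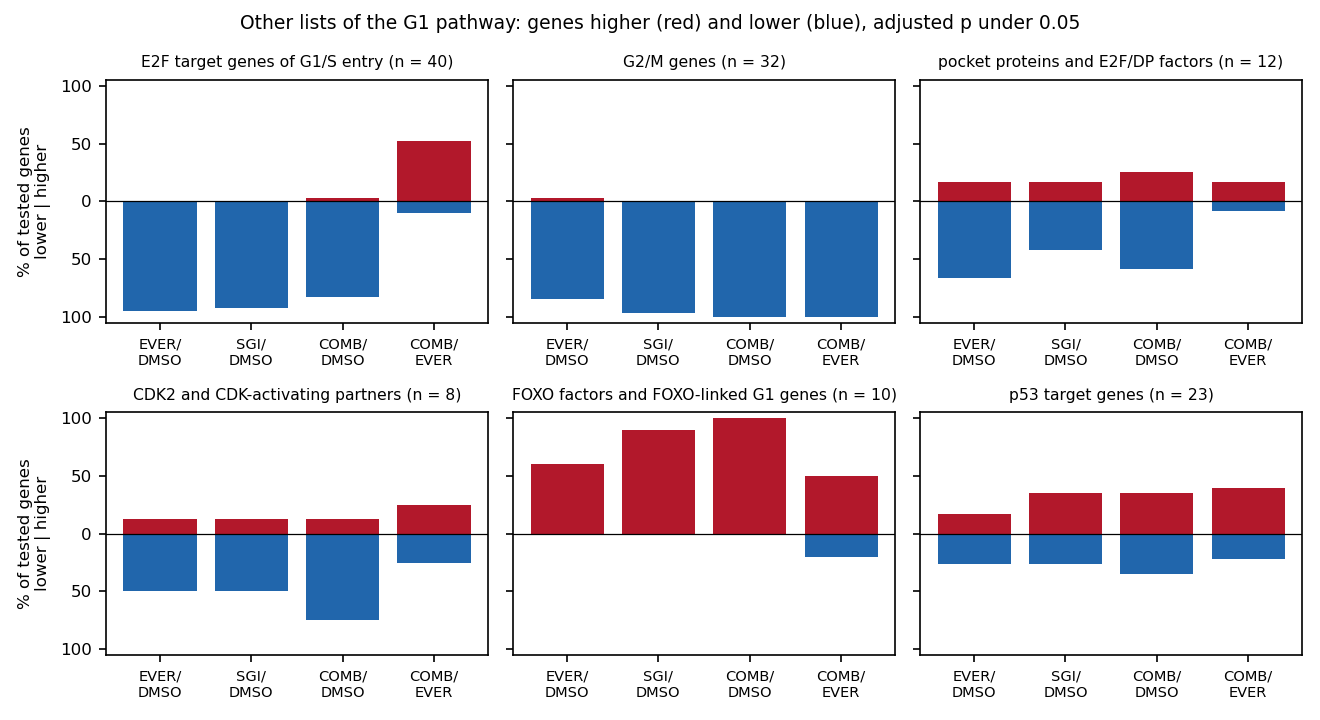
Percent of tested genes that were higher (red, upward) or lower (blue, downward) at an adjusted p under 0.05 in 6 lists of the G1 pathway, for everolimus (EVER), SGI-1027 (SGI) and the combination (COMB) against DMSO and for the combination against everolimus. All 32 G2/M genes were lower with the combination than with DMSO or everolimus, beside 33.4% and 19.2% of all tested genes. Of 40 E2F targets, 21 were higher with the combination than with everolimus, beside 20.1% of all tested genes.

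Of CDK2 and its partners and activators, 8 tested, 4, 4 and 6 were lower and 1 was higher in the 3 comparisons with DMSO. All tested genes gave 29.2%, 30.6% and 33.4% lower and 27.2%, 32% and 32.8% higher. CCNA2, the cyclin of S phase and G2, fell from 59.9 FPKM to 39.5, 30.6 and 29.2, and CDK2 itself from 22.2 to 14.9, 16.4 and 18.5 FPKM. The CDK2 phosphatase CDC25A fell by 0.79, 0.51 and 0.28 on the log2 scale. CCNA1 was lower with the combination only among the 3 (-0.83 ± 0.14, adjusted p = 5.7e-05).

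Other CDK inhibitors differed from CDKN1A and CDKN1B. CDKN1C (p57) rose from 2.30 FPKM in DMSO to 8.57, 7.63 and 8.52 with everolimus, SGI-1027 and the combination, by 1.89, 1.73 and 1.87 on the log2 scale, and its 3 treated groups did not differ detectably. CDKN2C (p18), which blocks CDK4 and CDK6, fell from 35.4 to 32.1, 19.8 and 15.0 FPKM. CDKN3, a phosphatase of CDK2, fell from 58.5 to 44.5, 32.7 and 28.2 FPKM. CDKN2D (p19) rose with everolimus (0.32 ± 0.11, adjusted p = 0.0169). CDKN2A had at most 4 counts in any library and CDKN2B had 0 in all. Of the 4 tested, 2, 1 and 1 were higher and 2 were lower in each comparison with DMSO. All tested genes gave 27.2%, 32% and 32.8% higher and 29.2%, 30.6% and 33.4% lower.

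FOXO factors and genes linked to them mostly moved upward. Of the 10 tested, 6 were higher than DMSO in everolimus cells, 9 in SGI-1027 cells and 10 in combination cells, and 0 were called lower. Over all tested genes, 27.2%, 32% and 32.8% were higher and 29.2%, 30.6% and 33.4% lower. CCNG2, a cyclin of resting cells, rose from 3.79 FPKM to 12.4, 8.18 and 9.16 FPKM. FOXO1 rose from 0.693 to 0.919, 1.18 and 1.58 FPKM, and IRS2 from 17.4 to 19.7, 27.5 and 26.6 FPKM. KLF4 rose with SGI-1027 (0.84) and with the combination (1.19), while its everolimus value of -0.22 missed the threshold.

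Among p53 target genes, of which CDKN1A is the best known, no direction prevailed. Of 23 tested, 4 were higher and 6 lower with everolimus, 8 and 6 with SGI-1027, and 8 and 8 with the combination. The shares over all tested genes were 27.2%, 32% and 32.8% higher and 29.2%, 30.6% and 33.4% lower. The death receptor TNFRSF10B rose from 26.6 FPKM in DMSO to 35.4 with SGI-1027 and 44.2 with the combination and stood at 26.4 with everolimus, and the kinase PLK3 rose from 2.05 to 3.04 and 4.41 FPKM, with 2.21 under everolimus. XPC, a DNA repair sensor, rose in all 3 treatments by 0.53 to 0.55, and the polymerase POLH fell in all 3 by 0.34 to 0.46.

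In the MYC network and the growth-factor inputs, 7 of 16 were higher and 4 lower with everolimus, 9 and 6 with SGI-1027, and 9 and 5 with the combination. Beside them, 27.2%, 32% and 32.8% of all tested genes were higher and 29.2%, 30.6% and 33.4% lower. Among the MYC antagonists, 3 of the genes with the smallest p for the combination rose: MXD4 from 7.87 FPKM to 22.5, 20.0 and 17.1, MNT from 2.39 to 3.67, 4.41 and 4.49, and MXI1 from 3.36 to 5.46, 4.78 and 5.65. MXD3, of the same family and named after its values were seen, went from 5.19 FPKM to 6.66 with everolimus, where it rose, and to 4.48 and 4.10 with SGI-1027 and the combination, where it fell (adjusted p = 0.0327 and 0.00091). MYC, singled out after its values were seen, rose as well, from 26.7 to 34.3, 36.3 and 41.4 FPKM. EGR1, an immediate early gene of growth-factor signalling, fell from 13.2 to 6.76 with SGI-1027 and 3.26 with the combination and was 14.3 FPKM with everolimus.

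The ubiquitin ligases that degrade G1 regulators gave 4 higher and 7 lower of 16 with everolimus, the same counts with SGI-1027, and 4 and 6 with the combination. Among all tested genes, 27.2%, 32% and 32.8% were higher and 29.2%, 30.6% and 33.4% lower. SKP2, the subunit that marks p27 for degradation, fell from 11.8 FPKM to 7.75, 7.78 and 8.23 FPKM, and its cofactor CKS1B from 130 to 96.7, 84.3 and 88.5 FPKM. CKS2 fell by 0.47, 0.89 and 0.88 on the log2 scale, and the CUL4 adaptor DDB1 fell with SGI-1027 (-0.24) and the combination (-0.36). Of 6 genes listed with the DREAM complex, which holds cell cycle genes silent in resting cells, 2, 3 and 1 were lower and 0 higher. MYBL1, a MYB factor on that list and not a subunit of the repressive complex, was the gene lower with the combination (-0.26 ± 0.05, adjusted p = 7.52e-05). LIN9 was lower with each drug alone (-0.34 and -0.35).

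Cyclins and CDKs outside G1 control showed no common direction. Of 14 other cyclins, 3, 4 and 4 were higher and 7, 6 and 5 lower in the 3 comparisons, with CCNL2, a splicing cyclin, up from 14.2 to 25.0 FPKM with the combination and CCNYL1 down from 17.7 to 13.3 FPKM. Of 16 other CDKs and CDK5 activators, 2, 4 and 4 were higher and 8, 5 and 6 lower. For both lists, the shares over all tested genes were 27.2%, 32% and 32.8% higher and 29.2%, 30.6% and 33.4% lower. CDK15 fell from 4.10 to 1.74 FPKM and CDK16 from 46.3 to 32.5 FPKM with the combination, and CDK12, a kinase of transcription elongation, fell by 0.33 to 0.41 in all 3 treatments. Among the 8 renal markers 2, 4 and 3 were higher and 5, 1 and 3 lower, beside the same shares over all tested genes. Among the 3 tested markers of other cell types 1, 2 and 0 were higher and 0, 0 and 1 lower, beside these shares.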

How the data were processed

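RNA sequencing of 786-O cells was analysed in 12 libraries (4 groups of 3). The deposited gene table held raw read counts and, beside them, FPKM made by the authors. FPKM equalled the count divided by 1 fixed length per gene and by the library's own total (within a relative spread of 7e-07 over 13244 genes). Aligner, counter, strand setting and annotation are not given in the sources used here. The submitters' processing notes name the mouse builds GRCm38 and mm10, although 16830 of 17085 symbols were human, so no coordinate was taken from the files.

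Counts were tested with edgeR 4.0.16 in R 4.3.3 (TMM factors, filterByExpr, quasi-likelihood test, 1 fit of 4 groups, 7 contrasts), with Benjamini-Hochberg adjustment over 12841 genes and an adjusted p under 0.05. Totals were 37046231 to 41516976 counts, TMM factors 0.99 to 1.01. Intervals on log2 changes are 95% and not adjusted. FPKM set levels side by side (mean ± SD). The fit was tested on simulated counts. Alternatives were DESeq2 1.42.0, limma 3.58.1 on log2(FPKM + 1) and log2(FPKM + 0.1), other scalings, other filters, a fold rule (log2 change of 1, unadjusted p), 2 groups only, a replicate block and leaving libraries out. Leaving out both libraries that stood apart was chosen after seeing the data. All 10 genes are named. From each of the lists up to 4 genes were named, those with the smallest p for the combination against DMSO. Lists with 6 or fewer tested genes could be named in full. The 10 genes and the lists were chosen with earlier results of these data known.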

Additional observations from a re-analysis of the deposited data

Results flagged for a closer look

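For 7 of the 9 tested G1 regulators, the effect of SGI-1027 differed between cells with and without everolimus, tested as an interaction in edgeR (adjusted p under 0.05), while 23.6% of all tested genes had an interaction above 0 and 22.1% below 0. SGI-1027 changed the gene more upward beside everolimus, on the log2 scale, by 0.9158 for CCND1, 0.8591 for CCND3, 0.6324 for CDK4, 0.5969 for E2F1 and 0.2376 for CCNE2, whose call was lost in 7 of 21 alternative analyses. The difference was -0.4112 for CDKN1B and -0.2304 for CDK6.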

How the results depend on the processing

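Over the 22 alternatives (21 for the interaction), no called change of a G1 regulator turned its direction. The changes of CCND1, CCND3, CDKN1A and CDKN1B against DMSO that passed the test passed it under every alternative that adjusted p, as did the everolimus and SGI-1027 values of CDK4 and E2F1 and the everolimus value of CCNE2 and the combination value of CCNE1. The rule of a log2 change of 1 with an unadjusted p left 1 gene higher with the combination than with DMSO, 1 higher with the combination than with everolimus, and 0 in each other count. The number lower with the combination than with DMSO was 1 instead of 2, from the loss of E2F1, with upper-quartile scaling, library size only, a minimum of 10 counts, 2 groups only, both limma fits and the replicate block, it was 1 to 2 over the fits that left out 1 library, and it was 3 without both libraries that stood apart, with CDK4 and CDK6 gained and E2F1 lost. For the combination against SGI-1027, the number lower was 0 with library size only, with no filter and with 2 groups only, and 2 without both libraries that stood apart. It was 0 to 2 over fits that left out 1 library (0 without the second SGI-1027 or any combination library, 2 without the first DMSO library), and the number higher was 1 to 2. Upper-quartile scaling gave 4 genes higher with SGI-1027 (CDK6 at 0.11 and CDKN1B at 0.12 were added). No filter gave 2 lower with SGI-1027 than with everolimus, where CCND2, left out by the main filter, was added at its few counts. Over fits that left out 1 library, that last count was 0 to 1 (0 without the first SGI-1027 library), and the number higher with everolimus was 1 to 2 (1 without the second everolimus library).

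Uncalled values near 0 changed sign. CDKN1A with everolimus was 0.0713 with upper-quartile scaling, 0.0029 with library size only, 0.0070 at a minimum of 10 counts, 0.0088 with 2 groups only, and 0.00037 and 0.00024 with limma. CCNE2 was 0.0435 (upper quartile) and 0.0031 (10 counts) with SGI-1027 and 0.0329 (upper quartile) with the combination, and CDK6 with the combination was 0.0045 (upper quartile). For the combination against SGI-1027, library size only, both limma fits and the omission of both libraries gave 0.0100, 0.0104, 0.0111 and 0.0583 for CCND3 and 0.00887, 0.00892, 0.0103 and 0.00396 for CCNE2. The CCNE1 interaction was -0.0526 (upper quartile) and -0.0825 (both libraries left out). Leaving out 1 library gave -0.0613 to 0.0358 for CDKN1A with everolimus, -0.0421 to 0.0321 for CCNE2 with SGI-1027, -0.0426 to 0.0202 for CCNE2 with the combination, -0.0558 to 0.0583 for CCND3 and -0.0553 to 0.0187 for CCNE2 between the combination and SGI-1027, -0.0307 to 0.147 for CDK4 between SGI-1027 and everolimus, and -0.0736 to 0.107 for the CCNE1 interaction. The causes were not tested.

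No pairing by library number was detected, which does not settle whether the numbers mark shared cultures or batches. Deviations of same-numbered libraries correlated at -0.176 to 0.0358 in 18 pairs of libraries, and those of differently numbered libraries at -0.14 to 0.232 in 36 pairs. The replicate block changed the call of no G1 regulator other than E2F1. CCND2 had too few counts to pass the filter of the main fit, and 3 libraries per group limit the precision elsewhere. Levels of protein and phosphorylation were not measured here.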
